A study of Xenopus laevis with 32 samples.

Results

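The refractory period was compared with the regeneration period in amputated tails of the African clawed frog, Xenopus laevis, at 6 h after amputation. The comparison rests on refractory 6 h libraries A, B, C and D and regeneration 6 h libraries A, C and D, which are 7 of the 32 libraries of the series. They are the 6 h libraries that the authors' normalized tables keep; regeneration 6 h B is absent from those tables, and the reason is not given in the sources used here. Refractory tails are those labelled with the refractory condition, amputated and sampled at 6 h. Regeneration tails are those labelled with the regeneration condition, likewise amputated and sampled at 6 h. The labels name no strain, mutation, transgene or drug for either group. All embryos came from eggs of hormone-primed females fertilised with testis suspension, were kept in a dilute salt medium with gentamycin, and were pooled, 20 to a sample, before RNA extraction. The protocol in the labels names the regenerative stage for every sample, refractory ones included, so the developmental stage of the refractory embryos is not settled. The refractory period is itself a window of development, so stage should differ with the period, and clutch may differ too. Their part cannot be told apart from that of the period itself. The labels describe 4 biological repeats, and p-values measure the spread between these pooled samples.

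A tadpole of this frog regrows an amputated tail for most of its larval life, except in the refractory period, a window of development in which the stump heals over without regrowth. Skin cells migrate over the wound within hours, and injured tissue switches on immediate early genes, which code for short-lived transcription factors and signal regulators. The covering epidermis anchors itself to the basement membrane by hemidesmosomes, in which the integrin of itga6 and itgb4 holds a laminin with the chain of lamb3. In a tail that regrows, the epidermis of the tip later signals to the growing muscle, notochord and spinal cord below it.

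Total counts ran from 2011011 to 3283790 in the refractory libraries and from 3283864 to 4015110 in the regeneration libraries, so the refractory libraries were shallower without overlap. One edgeR quasi-likelihood model over 27 libraries of 8 groups (each period at 0, 0.5, 6 and 72 h) tested 21458 genes, and a gene was called at an adjusted p under 0.05 (Benjamini-Hochberg over all genes tested). Values of single libraries are in CPM, the reads of a gene scaled to a library of fixed size, in the order A, B, C, D for refractory tails and A, C, D for regeneration tails at 6 h. CPM do not correct for transcript length, so levels are compared between groups and not between genes. Log2 differences are refractory minus regeneration. Where one is printed with ±, a standard error (SE) follows. It was taken as the absolute log2 difference over the square root of the F statistic of its test, so it is approximate. The endings .L and .S name the paired copies (homeologs) that this allotetraploid frog carries of many genes; how reads shared by near-identical copies were assigned is not stated, so a difference between copies is uncertain.

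The tail label was checked against marker genes, with all 32 libraries scaled together. The muscle actin actc1.L lay between 21364 and 27892 CPM in refractory libraries and between 22806 and 23252 CPM in regeneration libraries. The notochord collagen col2a1.L lay between 1681 and 2474 CPM in refractory libraries and between 1927 and 2175 CPM in regeneration libraries. Both transcripts were therefore read in every library, which does not settle from which part of the body they came. The rod photoreceptor gene rho.L, which a tail should lack, lay between 201 and 268 CPM in refractory libraries and between 167 and 246 CPM in regeneration libraries, so a transcript of the retina was read under the label tail in both groups. Summed markers of liver, pancreas and gut lay between 6631 and 8746 CPM in refractory libraries and between 5877 and 6681 CPM in regeneration libraries A, C and D. The labels give the tissue as tail but name embryos, 20 to a sample, as what RNA was taken from, so which part of the body each library covers is not settled; "refractory tails" and "regeneration tails" follow the tissue label here. The library left out, regeneration 6 h B, stood apart from the other regeneration libraries: the summed epidermis and goblet cell markers were at 6159 CPM there and between 16098 and 17043 CPM in regeneration A, C and D. In a bulk sample, fewer cells of a type and less RNA per cell cannot be told apart.

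At 6 h, 744 of the 21458 genes were called, which is 3.47%: 355 were higher in refractory tails (1.65%) and 389 lower (1.81%). The median log2 difference over all genes tested was 0.009. The libraries of both groups did not overlap for 328 of the higher and 378 of the lower genes, and over all genes tested they did not overlap for 13.1% (6.23% higher and 6.9% lower). Among the called genes the median was 2.17-fold for those higher in refractory tails and 1.95-fold for those lower, and 82 higher genes but only 36 lower ones differed by at least 4-fold. Without regeneration A the counts fell to 205 higher and 249 lower, and without regeneration D to 217 and 257. With all 32 libraries in the model, regeneration 6 h B included, 251 genes were called higher and 138 lower. With libraries drawn down to 1 depth, an alternative chosen after seeing the data, 319 were higher and 337 lower. In a principal component analysis of these libraries the first component, with 24.3% of the variance, separated the periods, and the refractory libraries spread further along the second than the regeneration libraries did.

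Among the steepest differences were genes of the larval skin, several of them nearly silent in regeneration tails. The ouro genes code for antigens of larval tail skin in this frog, and the thdl genes were named for being turned down in larval tail skin by thyroid hormone. The gene ouro1.S was at 29.9, 137, 70.8 and 69.0 CPM in refractory tails, against 0, 0.541 and 0 CPM in regeneration tails. It had 779 counts in refractory tails and 2 in regeneration tails, a ratio of 387 with a 95% counting interval from 107 to 3202 (adjusted p = 6.62e-06). Its relative ouro2.L had a ratio of 30.8, with an interval from 8.18 to 260.02. Both genes were read in every refractory library and in a single regeneration library, C. The gene thdl20.S was at 362, 448, 748 and 694 CPM in refractory tails and 2.33, 4.87 and 6.2 CPM in regeneration tails, 127-fold higher (log2 6.99 ± 0.62, adjusted p = 2.5e-07). Likewise thdl17.L was at 198, 249, 351 and 382 CPM in refractory tails and 0, 0.541 and 3.10 CPM in regeneration tails (log2 7.99 ± 0.86, adjusted p = 8.28e-06), and thdl18.S was 35.3-fold higher. Not every copy behaved so: thdl20.L was at 339, 406, 429 and 442 CPM in refractory tails and 288, 259 and 289 CPM in regeneration tails, and was not called (adjusted p = 0.173). The gene dan4l.L, which is in none of the lists and was not tied to skin here, was also higher. It was at 4717, 3547, 6679 and 5042 CPM in refractory tails and 296, 321 and 373 CPM in regeneration tails, 15.1-fold higher (adjusted p = 0.000123).

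These differences were already there at the amputation. At 0 h, ouro1.S differed by a ratio of 513, with an interval from 142 to 4242. With no count of thdl17.L in regeneration tails at 0 h, it was at least 223-fold higher in refractory tails, against a floor of 3 counts over the group. The log2 differences at 0 h were 7.37 for thdl20.S and 4.09 for dan4l.L, close to the 6 h values of 6.99 and 3.92. By 72 h that of thdl18.S stood at -2.05 and did not pass the test (adjusted p = 0.067).

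Further genes were among the 12 largest positive differences. Chondroadherin, a matrix protein to which cartilage cells bind, is coded by chad.L, which was at 26, 52.3, 28.2 and 29.9 CPM in refractory tails and 4.14, 0.541 and 1.55 CPM in regeneration tails (log2 3.99 ± 0.81, adjusted p = 0.00296). Its copy chad.S was at 8.18, 9.15, 1.53 and 22 CPM in refractory tails and was not read in regeneration tails, at least 35.8-fold higher against a floor of 3 counts over the group. The tendon gene tnmd.S had a ratio of 28.5, with an interval from 9.43 to 141. For chad.L and chad.S every refractory library lay above every regeneration library, as the rule for naming the largest differences required. These 3 genes were higher in refractory tails at 0 h too, chad.L by 3.93 (log2, adjusted p = 0.0198). At 0 h chad.S and tnmd.S had no count in regeneration tails and were at least 9.39-fold and at least 16.4-fold higher. The leukotriene receptor gene ltb4r2.S was at 3.56, 4.57, 5.52 and 7.11 CPM in refractory tails and was not read in regeneration tails (at least 18.9-fold higher). Its call did not hold in any of the 7 omissions of a 6 h library. The nuclear receptor gene rora.S differed by 4.44 ± 1.23 (log2, adjusted p = 0.0198), and rorb.2.L, of the same family, had a ratio of 22.9, with an interval from 7.50 to 114. The call of rora.S did not hold without regeneration A, regeneration C or refractory C, and that of rorb.2.L without regeneration C, regeneration D, refractory B or refractory C.

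**Figure D1:**
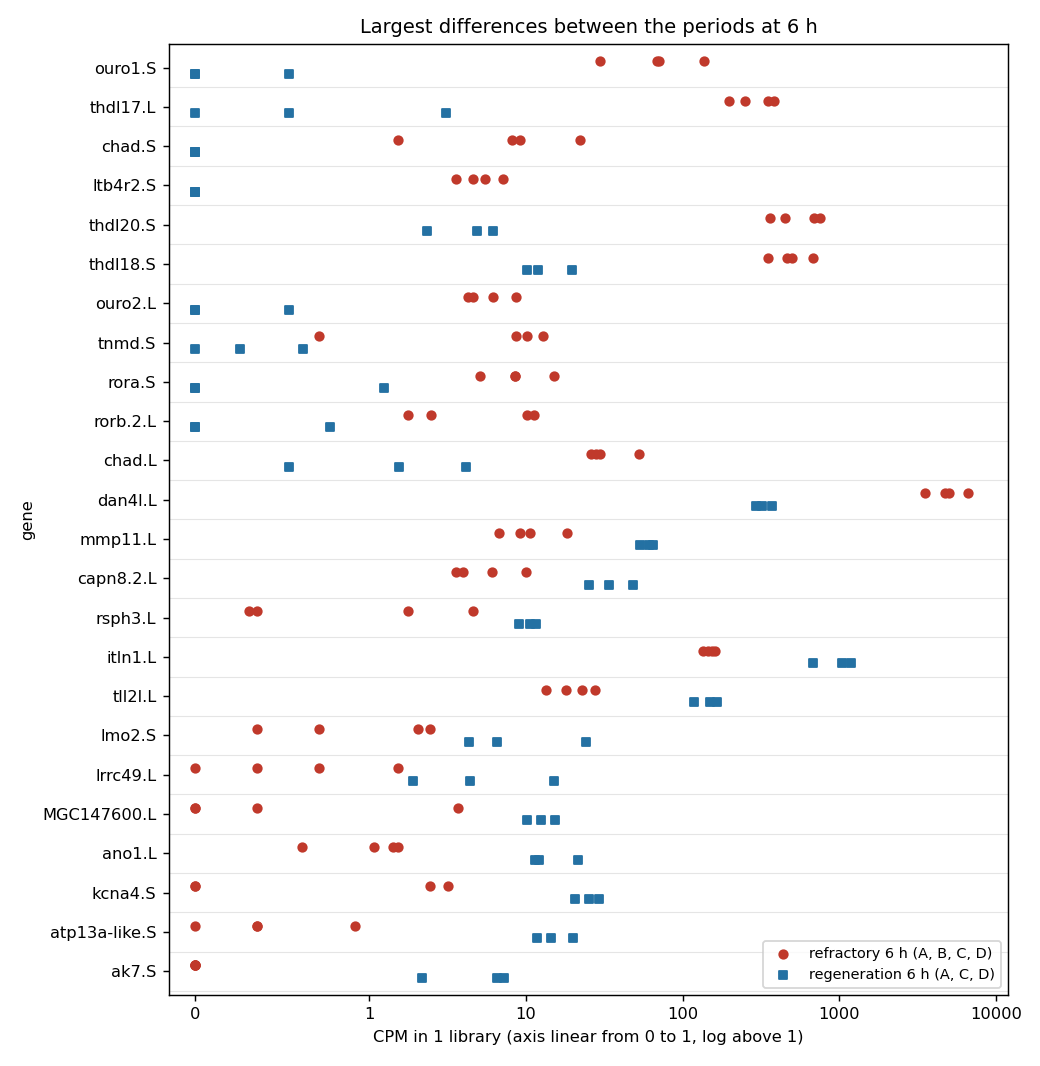
CPM (reads scaled to a library of fixed size) at 6 h of the symbol genes with the largest differences, 1 gene per line, with a red circle for each refractory library (upper) and a blue square for each regeneration library (lower), on an axis that is linear from 0 to 1 and logarithmic above. Refractory libraries reach 137 CPM for ouro1.S where no regeneration library exceeds 0.541 CPM, and the lower lines, such as itln1.L, tll2l.L and ak7.S, run the other way.

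Several keratin genes and genes of secreted proteins were lower in refractory tails. The keratin gene krt7.S was at 769, 784, 704 and 950.2 CPM in refractory tails and 3359.6, 3469 and 3976 CPM in regeneration tails, 4.49-fold lower (log2 -2.17 ± 0.18, adjusted p = 5.97e-08). Its copy krt7.L was at 819.9, 960.4, 849 and 886 CPM in refractory tails and 3236, 2805 and 3001 CPM in regeneration tails (log2 -1.78 ± 0.13, adjusted p = 2.97e-10). The groups did not overlap for either copy, as for most called genes. The keratin genes krt12.4.S and krt70.S differed by -2.11 ± 0.17 and -2.17 ± 0.20 (log2; adjusted p = 5.57e-09 and 2.61e-13). Among secreted products, itln1.L, the intelectin of mucus-secreting goblet cells, was at 155, 145, 162 and 136 CPM in refractory tails and 1185, 679 and 1039.5 CPM in regeneration tails, 6.47-fold lower. The mucin-like otogl2.L, among the called genes of highest CPM, was at 9170.3, 6811, 8091 and 8079 CPM in refractory tails and 20306, 14595 and 20504 CPM in regeneration tails (2.30-fold lower, adjusted p = 1.27e-09). The galectin gene lgals3.L differed by -1.17 ± 0.09 (adjusted p = 1.87e-18), a call that did not hold with all 32 libraries, regeneration 6 h B included (adjusted p = 0.129). The tolloid-like protease gene tll2l.L was at 27.8, 22.9, 18.09 and 13.5 CPM in refractory tails and 166, 150.4 and 118 CPM in regeneration tails, 7.08-fold lower. All of these were lower at 0 h too, from -0.87 for otogl2.L to -2.46 for tll2l.L.

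Of 89 measured epidermis and goblet cell markers, 19 were higher and 9 lower in refractory tails (over all genes 1.65% and 1.81%), with a median of 0.19; 13 and 8 of them stayed called with each 6 h library left out in turn. The list holds the ouro and thdl genes above, and was chosen with earlier results of these data known. At 0 h the same list had 6 higher and 10 lower (background 0.927% and 1.5%). The summed level of the list lay between 11226 and 14758 CPM in refractory libraries and between 16098 and 17043 CPM in regeneration libraries, without overlap. The sum includes the keratin genes above, which have high CPM, so its moving with them is fixed by its make-up. By number, 52 of the 89 members had a positive difference and 37 a negative one. The part of the sum in the single differences was not tested.

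Further genes were among the 12 most negative differences. Tails of the refractory period held no count of ak7.S, an adenylate kinase of motile cilia, which was at 7.25, 6.49 and 2.17 CPM in regeneration tails, at least 19.8-fold lower. The potassium channel gene kcna4.S was at 0, 0, 2.45 and 3.20 CPM in refractory tails and 20.7, 29.5 and 25.4 CPM in regeneration tails (log2 -4.03 ± 0.61, adjusted p = 7.32e-07), and at 72 h it differed by -5.05. The calcium-activated chloride channel gene ano1.L was at 1.42, 1.52, 0.613 and 1.07 CPM in refractory tails and 12.2, 21.6 and 11.5 CPM in regeneration tails (log2 -3.70 ± 0.64). None of the refractory libraries reached the lowest regeneration library for these genes, which the rule for naming the most negative differences required. Likewise atp13a-like.S was at 0.356, 0, 0.920 and 0.355 CPM in refractory tails and 14.5, 20.0 and 11.8 CPM in regeneration tails (log2 -4.99 ± 0.88, adjusted p = 2.33e-05), and the calpain protease gene capn8.2.L at 9.96, 3.56, 3.98 and 6.04 CPM in refractory tails and 33.9, 25.4 and 48.0 CPM in regeneration tails (log2 -2.58 ± 0.38, adjusted p = 4.64e-07). The gene MGC147600.L differed by -3.48 ± 0.87 (adjusted p = 0.00768). The blood and vessel factor lmo2.S, the cilium gene rsph3.L and lrrc49.L differed by -3.04 ± 0.88, -2.66 ± 0.75 and -3.28 ± 0.94, and each of these 3 calls was lost in at least 4 of 7 omissions, refractory A and refractory D among them for all 3. Also among the called genes of highest CPM, gapdh.S, of glycolysis, was at 1723, 1751, 1782 and 1988 CPM in refractory tails and 2805, 2533 and 2884 CPM in regeneration tails (log2 -0.60 ± 0.10), and the splicing factor gene srsf5.S at 1235, 1194, 1265 and 1284 CPM in refractory tails and 775, 1018 and 831 CPM in regeneration tails (log2 0.51 ± 0.09).

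Chaperones of the endoplasmic reticulum, which fold secreted and membrane proteins, were lower in refractory tails. The major one, hspa5.L, was at 68.3, 75.2, 67.7 and 64.3 CPM in refractory tails and 164, 224 and 177 CPM in regeneration tails, 2.74-fold lower (log2 -1.45 ± 0.15, adjusted p = 1.29e-12), and its copy hspa5.S was at 178, 162, 144 and 153 CPM in refractory tails and 304, 381 and 280.5 CPM in regeneration tails (log2 -1.02 ± 0.12, adjusted p = 1.71e-10). Another, hsp90b1.L, was at 62.6, 68.6, 65.9 and 66.8 CPM in refractory tails and 173, 208 and 153 CPM in regeneration tails (log2 -1.43 ± 0.16, adjusted p = 3.13e-11). No library of one group reached the range of the other for these 3 genes. They were named for the lowest p of their list in the same libraries, which favours such a separation. The disulfide isomerase genes pdia4.L, pdia3.L and pdia6.L, named after their values were seen, differed by -1.86 ± 0.27, -1.0 ± 0.18 and -1.32 ± 0.32, and the calcium-binding chaperone genes calr.L and calr.S by -0.58 ± 0.09 and -0.38 ± 0.08. Of 44 measured stress and chaperone genes 10 were lower and 1 higher (over all genes 1.81% and 1.65%), with a median of -0.28, and each of these stayed called with every 6 h library left out in turn (2 were called higher without refractory C). The single higher one was sqstm1.L, named after its values were seen and coding for a receptor for selective autophagy, at 195, 223, 214 and 294 CPM in refractory tails and 129, 118 and 93.6 CPM in regeneration tails (log2 1.03 ± 0.18). At 0 h 6 of the list were lower (over all genes 1.5%), and hspa5.L and hspa5.S differed by -1.35 and -1.47 there.

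Immediate early genes stood higher in refractory tails at 6 h. Of 76 measured members 29 were higher and none lower, with a median of 0.71; over all genes 1.65% were higher. For 36 of the list every refractory library lay above every regeneration library, as for 6.23% of all genes. The call of 12 of the 29 held with each 6 h library left out in turn; 17 members were called without regeneration A, 16 without regeneration D and 16 over all 32 libraries. The summed level of the list lay between 6407 and 7996 CPM in refractory libraries and between 4100 and 4552 CPM in regeneration libraries. At 0 h 10 members were already higher (over all genes 0.927%), with a median of 0.34. At 0.5 h 24 were higher (over all genes 0.979%), with a median of 0.93. The test of whether the 6 h difference departs from the 0 h difference called 1 member, higher (over all genes 0.205%). Over the list that change had a median of 0.10.

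The genes with the lowest p in that list code for a brake on inflammatory messages and a stress-induced transcription factor. The RNA-binding protein of zfp36 speeds the decay of cytokine mRNA, and zfp36.S was at 490.3, 540.2, 502 and 585 CPM in refractory tails and 218, 225 and 257 CPM in regeneration tails, 2.27-fold higher (log2 1.18 ± 0.11, adjusted p = 2.58e-14). Its copy zfp36.L was at 548, 532, 461 and 707 CPM in refractory tails and 280.1, 251 and 238 CPM in regeneration tails (log2 1.13 ± 0.12, adjusted p = 1e-12). Both copies differed by a similar amount. Neither overlapped between the groups, as held for most called genes. The transcription factor gene atf3.L was at 79.4, 85.9, 57.0 and 123 CPM in refractory tails and 15.8, 22.5 and 14.6 CPM in regeneration tails, 4.89-fold higher (log2 2.29 ± 0.32, adjusted p = 5.97e-08), and at 0 h it did not pass the test (log2 1.0, adjusted p = 0.169). Its copy atf3.S differed by 1.18 ± 0.44 at 6 h and was not called (adjusted p = 0.15). Several others, named after their values were seen, stayed called whichever library was left out. The zinc finger gene egr1.L was at 353, 417, 426 and 512 CPM in refractory tails and 178, 181 and 169.5 CPM in regeneration tails (log2 1.28 ± 0.18), and egr1.S differed by 1.44 ± 0.26. The AP-1 component genes fosl1.L and junb.S differed by 1.75 ± 0.33 and 1.33 ± 0.20. The dual-specificity phosphatase genes dusp1.L and dusp5.L, whose products switch off MAP kinases, differed by 2.00 ± 0.40 and 2.16 ± 0.36, and klf2.S by 1.82 ± 0.26. The call of fos.L, likewise named after its values were seen, with a log2 difference of 1.83 ± 0.41, did not hold without regeneration A (adjusted p = 0.0677) or without regeneration D (adjusted p = 0.0879).

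Inflammatory mediators went the same way. Of 34 measured members 6 were higher and none lower (over all genes 1.65% and 1.81%), with a median of 0.84. All 6 stayed called with each 6 h library left out in turn. At 0 h 1 was higher (over all genes 0.927%) and the median was 0.15. By 0.5 h 7 were higher (over all genes 0.979%), with a median of 0.78. The prostaglandin synthase gene ptgs2.L was at 135, 163, 161 and 176 CPM in refractory tails and 33.7, 44.9 and 49.6 CPM in regeneration tails, 3.72-fold higher (log2 1.89 ± 0.20, adjusted p = 1.99e-11). The groups were clear of each other at 6 h, as for most called genes. The difference was 0.21 at 0 h and -0.05 at 72 h, neither of them called. At 0.5 h it was 1.17 (adjusted p = 7.89e-05). Its copy ptgs2.S was at 146, 142, 154 and 165 CPM in refractory tails and 113, 100.4 and 118 CPM in regeneration tails and was not called (adjusted p = 0.142). The receptor gene tnfrsf12a.S, which the cytokine TWEAK binds, was at 115, 199, 102 and 141 CPM in refractory tails and 30.8, 48.7 and 27.3 CPM in regeneration tails (log2 1.96 ± 0.24, adjusted p = 7.19e-10). The transcription factor genes cebpd.L and cebpd.S, which act in the acute inflammatory response, differed by 1.0 ± 0.11 and 1.101 ± 0.13 (adjusted p = 5.98e-12 and 2.22e-09). None of 28 measured myeloid leukocyte markers was called by edgeR (1 at an unadjusted p under 0.05, and 1 called by DESeq2), their median was 0.43, and their summed level lay between 713 and 904 CPM in refractory libraries and between 759 and 806 CPM in regeneration libraries, so the groups overlapped. The part of leukocyte number in the mediators was not tested beyond these values.

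**Figure D2:**
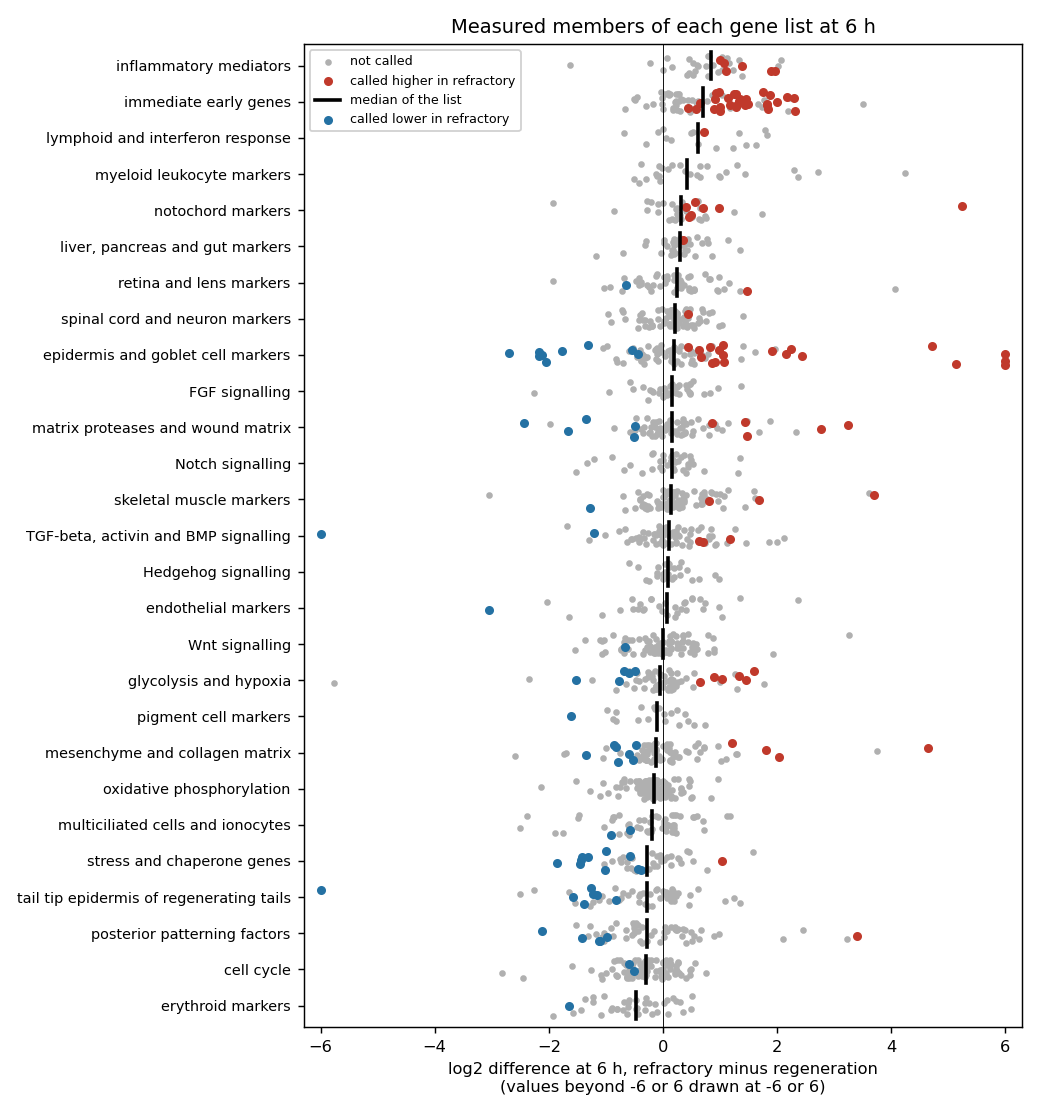
Log2 difference at 6 h (horizontal axis, refractory minus regeneration) of every measured member of each gene list, 1 point per gene, ordered by the median of the list (black bar); red points were called higher in refractory tails, blue points lower and grey points not called, and the line marks 0. Called immediate early genes and inflammatory mediators all lie to the right, and called stress and chaperone genes lie to the left but for sqstm1.L.

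The test of whether the 6 h difference departs from the 0 h difference called 58 genes (0.27%): 44 with a more positive difference at 6 h (0.205%) and 14 with a more negative one (0.0652%). It shares the 6 h libraries with the comparison above, and 49 of the 58 were called there as well. The 44 were chosen for a more positive change in refractory tails, so the order of their medians is fixed and their counts lean the same way. From 0 h to 6 h the 44 changed by a median log2 value of 1.62 in refractory tails and 0.31 in regeneration tails. Their median period difference was -0.33 at 0 h and 0.92 at 6 h. Within refractory tails 38 of them rose, and within regeneration tails 16. Over all genes, 4.13% changed between 0 and 6 h in refractory tails (3.35% rose and 0.783% fell) and 1.51% in regeneration tails (1.09% rose and 0.419% fell). Of the 58 calls 21 held with each library of the 4 groups left out in turn, and 38 genes were called without regeneration 0 h B.

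The lowest p among them was that of muc1.S, a mucin anchored in the cell membrane. At 6 h it was at 1217, 1706, 1162 and 1519 CPM in refractory tails and 140.3, 133 and 119 CPM in regeneration tails, 10.7-fold higher (log2 3.42 ± 0.15, adjusted p = 3.32e-22). At 0 h it had been at 137, 145, 149 and 158 CPM in refractory tails and 73.3, 90.9 and 112 CPM in regeneration B, C and D, and the difference of the responses was 2.73 ± 0.20 (adjusted p = 1.92e-13). Refractory tails thus reached a level at 6 h that regeneration tails did not approach, while muc1.L, at 101, 103, 96.6 and 74.6 CPM in refractory tails and 121, 109.8 and 118 CPM in regeneration tails, was not called. The FGF carrier gene fgfbp1.S was at 50.5, 43.7, 66.8 and 58.7 CPM in refractory tails and 16.1, 12.2 and 11.8 CPM in regeneration tails at 6 h (log2 2.04 ± 0.32). At 0 h the order had been the other way, with 8.47, 8.02, 12.2 and 9.72 CPM in refractory tails and 22.5, 18.4 and 19.2 CPM in regeneration tails, and the difference of the responses was 3.11 ± 0.45 (adjusted p = 2.09e-06). The transglutaminase gene tgm1.L, whose product crosslinks the outer layer of skin cells, was at 46.6, 80.8, 76.9 and 80.0 CPM in refractory tails and 12.9, 17.6 and 8.37 CPM in regeneration tails (log2 2.44 ± 0.32), with a response difference of 2.22 ± 0.45 (adjusted p = 0.00307).

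Another of the 58 was lamb3.S. This laminin chain gene was at 192, 283, 163 and 221 CPM in refractory tails and 46.9, 58.7 and 38.1 CPM in regeneration tails at 6 h, 4.47-fold higher (log2 2.16 ± 0.26, adjusted p = 8.88e-09). At 0 h it averaged 1.97 ± 1.41 CPM in refractory tails and 3.02 ± 1.88 CPM in regeneration tails (SD, n = 4 and 3). It was thus far below its 6 h level in both periods at 0 h, and the difference of the responses was 2.84 ± 0.57 (adjusted p = 0.0043, but 0.28 without regeneration 0 h B). The other genes of this paragraph were picked after their values were seen and form no fixed list. The integrin gene itgb4.L was at 425, 468, 369 and 540.3 CPM in refractory tails and 207, 229 and 204 CPM in regeneration tails at 6 h, and at 122, 116, 178 and 155 CPM in refractory tails and 248, 180.3 and 185 CPM in regeneration tails at 0 h. Its difference was 1.08 ± 0.14 at 6 h and -0.52 at 0 h, both called, and the response difference was 1.60 ± 0.20 (adjusted p = 5.18e-08). Plectin ties that integrin to keratin filaments, and plec.S was at 499, 652, 540.4 and 579 CPM in refractory tails and 263, 246 and 256 CPM in regeneration tails at 6 h, with a response difference of 1.37 ± 0.17 (adjusted p = 8.47e-09). The syndecan gene sdc1.L was at 599, 795, 648 and 726 CPM in refractory tails and 247, 272 and 232 CPM in regeneration tails, with a response difference of 1.51 ± 0.25. The chloride channel family gene clic3.S was at 380.0, 408, 380.4 and 406 CPM in refractory tails and 154, 128 and 157 CPM in regeneration tails, with a response difference of 1.59 ± 0.19 (adjusted p = 2.64e-09). The integrin genes itga6.L and itga6.S differed by 0.90 ± 0.20 and 0.98 ± 0.19 at 6 h. The response differences of itgb4.L, plec.S, sdc1.L and clic3.S stayed called with each library left out in turn. Whether the summed level of epidermis markers plays a part in these differences was not tested. That sum was lower in refractory libraries, but it holds keratin genes of high CPM, and 52 of its 89 members had a positive difference.

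**Figure D3:**
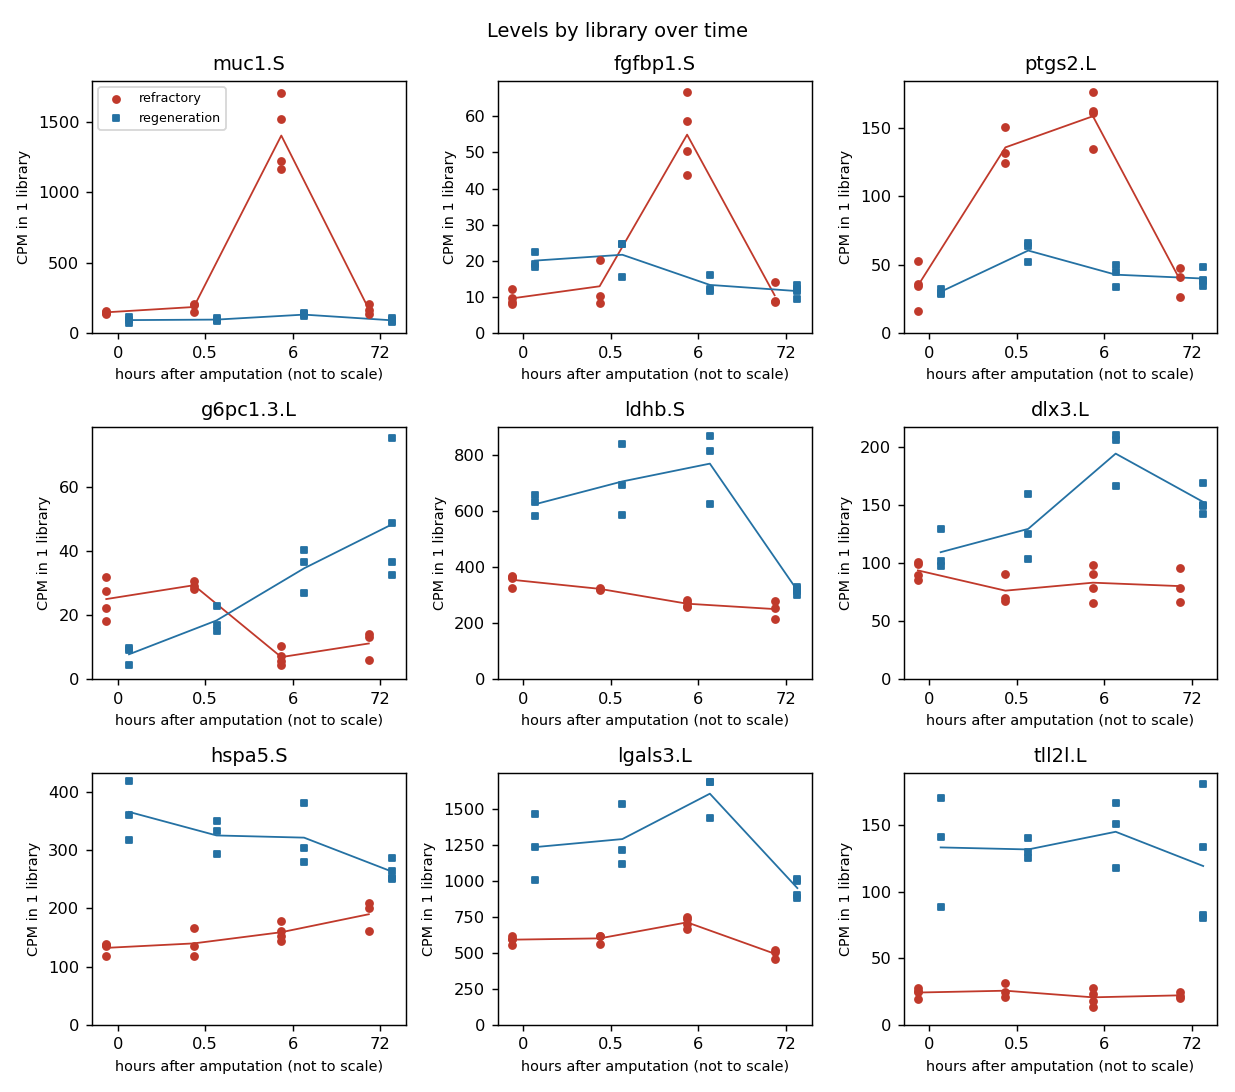
CPM (vertical axis, linear) of 9 genes at 0, 0.5, 6 and 72 h after amputation (horizontal axis, not to scale), 1 point per library and a line through the group means, with refractory tails in red and regeneration tails in blue. At 6 h the refractory points of muc1.S, at 1162 CPM and above, stand clear of the regeneration points, at 140.3 CPM and below, whereas hspa5.S, lgals3.L and tll2l.L lie lower in refractory tails from 0 h on and g6pc1.3.L changes its order between 0.5 and 6 h.

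The genes whose difference moved the other way include enzymes that release glucose. The catalytic subunit of glucose-6-phosphatase is coded by g6pc1.3.L, at 4.27, 7.11, 5.52 and 10.3 CPM in refractory tails and 36.5, 40.3 and 26.7 CPM in regeneration tails at 6 h, 5.08-fold lower (log2 -2.34 ± 0.33, adjusted p = 6.17e-08). At 0 h it had been the higher one in refractory tails, at 18.2, 22, 27.4 and 31.9 CPM, against 9.66, 4.33 and 9.03 CPM in regeneration tails (log2 1.68, adjusted p = 0.000557). The order of the periods was thus reversed, with a response difference of -4.03 ± 0.47 (adjusted p = 2.41e-09). Its copy g6pc1.3.S was at 6.76, 10.2, 8.58 and 4.98 CPM in refractory tails and 19.9, 28.1 and 34.1 CPM in regeneration tails, with a response difference of -2.81 ± 0.51 (adjusted p = 0.000563). The enzyme gene pck1.L, of the same pathway, was at 17.8, 12.7, 20.2 and 19.9 CPM in refractory tails and 44.5, 47.9 and 41.8 CPM in regeneration tails. Its 6 h difference was not called (adjusted p = 0.0893). Its response difference, which takes in the period difference at 0 h as well, was -3.45 ± 0.59 (adjusted p = 0.00727). The lactate dehydrogenase gene ldhb.S was at 259, 276, 257 and 282 CPM in refractory tails and 812, 626 and 867 CPM in regeneration tails, 2.86-fold lower (log2 -1.52 ± 0.10, adjusted p = 3.32e-22). The transcription factor gene dlx3.L, which acts in epidermal differentiation, was at 90.7, 65.0, 77.9 and 97.8 CPM in refractory tails and 206, 166 and 209.8 CPM in regeneration tails (log2 -1.22 ± 0.15, adjusted p = 5.58e-10), and dlx3.S differed by -1.26 ± 0.19. The response differences of ldhb.S and dlx3.L were -0.70 ± 0.15 and -1.0 ± 0.21. They did not hold without regeneration 6 h D for ldhb.S (adjusted p = 0.0708) or without regeneration 0 h B for dlx3.L (adjusted p = 0.056).

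Matrix metalloproteinases, which cut collagens and other matrix proteins, differed in both directions. The neutrophil collagenase gene mmp8.S was at 675, 905, 725 and 861 CPM in refractory tails and 91.4, 165 and 92.0 CPM in regeneration tails, 6.80-fold higher (log2 2.77 ± 0.28, adjusted p = 1.62e-06), and its 0 h difference of 0.99 was not called. Its copy mmp8.L overlapped between the groups, at 64.8, 191, 77.2 and 80.0 CPM in refractory tails and 56.7, 159 and 136 CPM in regeneration tails, and with the copies' counts summed the difference was 1.92. The stromelysin gene mmp11.L was at 6.76, 18.3, 9.2 and 10.7 CPM in refractory tails and 53.3, 60.6 and 65.1 CPM in regeneration tails, 5.42-fold lower (log2 -2.44 ± 0.41, adjusted p = 0.000123), and mmp3.L was at 38.4, 29.0, 47.8 and 28.1 CPM in refractory tails and 105, 114 and 126 CPM in regeneration tails, 3.18-fold lower. The groups did not overlap for mmp8.S, mmp11.L or mmp3.L. The rule for naming the most negative differences required this of mmp11.L, and it held for most called genes. Of 70 measured genes of matrix proteases and wound matrix 5 were higher and 5 lower (over all genes 1.65% and 1.81%), with a median of 0.16. Of the higher ones 1 stayed called whichever library was left out, and 3 were called without regeneration C, regeneration D, refractory B or refractory C and 1 without regeneration A. The wound matrix genes postn.S and fn1.S, named after their values were seen, code for periostin and fibronectin and differed by -1.36 ± 0.27 and -0.49 ± 0.10.

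Called markers of the tip epidermis of regenerating tails were lower, and called posterior patterning factors were lower but for cyp26b1.S (over all genes 1.81% were lower and 1.65% higher). Of 54 measured tip epidermis genes 7 were lower and none higher, with a median of -0.29; 3 of the 7 stayed called whichever library was left out, and 4 were called without regeneration D. The basement membrane gene nid2.L was at 23.5, 40.1, 32.8 and 45.1 CPM in refractory tails and 91.4, 62.2 and 81.2 CPM in regeneration tails (log2 -1.15 ± 0.23, adjusted p = 0.000402). The growth factor gene bmp2.L, named after its values were seen, was at 0 in all refractory libraries and at 6.99, 2.16 and 2.79 CPM in regeneration tails, a call that did not hold without regeneration A (adjusted p = 0.0996). At 0 h 5 tip epidermis genes were already lower and 1 higher (over all genes 1.5% and 0.927%), with a median of -0.28. At 0.5 h 6 were lower (over all genes 1.13%), with a median of -0.19. The test of whether the 6 h difference departs from the 0 h difference called 1, lower (over all genes 0.0652%). At 72 h 16 tip epidermis genes were lower in refractory tails (over all genes 1.34%), and the median was -0.69. Of 59 posterior patterning factors 5 were lower and 1 higher, with a median of -0.29; 3 were called lower without regeneration C and also without regeneration D. The Hox gene hoxc10.L was at 24.2, 23.4, 28.8 and 14.2 CPM in refractory tails and 42.7, 58.2 and 45.9 CPM in regeneration tails (log2 -1.11 ± 0.24, adjusted p = 0.000985), and hoxa9.S was at 7.12, 13.2, 9.2 and 22 CPM in refractory tails and 33.4, 35.2 and 35.3 CPM in regeneration tails (log2 -1.43 ± 0.33). The higher one was cyp26b1.S, whose product breaks down retinoic acid, with a log2 difference of 3.40 ± 0.82 that did not hold without regeneration A (adjusted p = 0.0547). At 0 h 2 posterior patterning factors were higher and 2 lower (over all genes 0.927% and 1.5%), with a median of -0.18. None of these factors had a called response difference (over all genes 0.27%).

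Over all genes 3.47% were called. Of 73 measured genes of TGF-beta, activin and BMP signalling 3 were higher and 2 lower, which is 6.85%, with a median of 0.10. The gene pmepa1.L, a target that dampens TGF-beta signalling, was at 165, 237, 142 and 194 CPM in refractory tails and 78.4, 57.9 and 108 CPM in regeneration tails (log2 1.18 ± 0.19, adjusted p = 2.63e-06). The decoy receptor gene bambi.L was at 26.3, 35.1, 29.7 and 22.7 CPM in refractory tails and 60.3, 67.6 and 67.6 CPM in regeneration tails (log2 -1.20 ± 0.24, adjusted p = 0.00021); the other lower one was bmp2.L, and without regeneration A bambi.L remained. In Wnt signalling 1 of 88 was lower (1.14%), with a median of -0.007. Neither edgeR nor DESeq2 called any of 37 FGF genes (median 0.16), 39 Notch genes (median 0.15) or 27 Hedgehog genes (median 0.09), of which 1, 3 and 2 had an unadjusted edgeR p under 0.05, each with a positive difference. Summed FGF genes lay between 910 and 962 CPM in refractory libraries and between 854 and 890 CPM in regeneration libraries A, C and D. Summed Notch genes lay between 2115 and 2430 CPM and between 1971 and 2083 CPM in the same order. Neither sum overlapped, but regeneration 6 h B was at 1044 CPM for FGF, above the refractory range, and at 2202 CPM for Notch, within it. Summed Hedgehog genes overlapped.

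Among the lists of tissues below the skin, called members of the notochord list were all higher, and mesenchyme genes were called in both directions (over all genes 1.65% were higher and 1.81% lower). Of 38 notochord markers 7 were higher and none lower, with a median of 0.32, but 4 were called without regeneration C or refractory C, 3 without regeneration D or refractory B and 2 without regeneration A. The collagen gene col9a1.L was at 357, 548, 578 and 486 CPM in refractory tails and 290.0, 326 and 296 CPM in regeneration tails (log2 0.70 ± 0.13, adjusted p = 0.000479). Summed notochord markers lay between 7114 and 9463 CPM in refractory libraries and between 6584 and 7180 CPM in regeneration libraries, with a slight overlap. Which tissue the transcripts of this list came from was not tested. Of 77 genes of mesenchyme and collagen matrix 4 were higher and 7 lower, with 4 called lower without regeneration D. The collagen gene col12a1.L was at 39.5, 53.4, 75.7 and 79.3 CPM in refractory tails and 23.0, 34.9 and 22.6 CPM in regeneration tails (log2 1.21 ± 0.25). The copies of the keratan sulfate proteoglycan gene kera went opposite ways: kera.S was at 13.2, 15.8, 16.6 and 13.5 CPM in refractory tails and 3.88, 1.62 and 5.27 CPM in regeneration tails (log2 2.04 ± 0.46, adjusted p = 0.00162), and kera.L at 60.5, 65.6, 50.9 and 67.2 CPM in refractory tails and 101, 110.1 and 105 CPM in regeneration tails (log2 -0.79 ± 0.17); summed over both copies the difference was -0.54. Of 92 skeletal muscle markers 3 were higher and 1 lower. The muscle repair gene xirp1.L was at 69.0, 76.7, 90.7 and 194 CPM in refractory tails and 33.7, 25.4 and 42.5 CPM in regeneration tails (log2 1.68 ± 0.34), and pygm.S, the muscle enzyme that breaks down glycogen, was at 24.2, 32.5, 37.4 and 24.9 CPM in refractory tails and 84.7, 68.7 and 64.2 CPM in regeneration tails (log2 -1.29 ± 0.20, adjusted p = 9.04e-07). Of 77 spinal cord and neuron markers 1 was called, higher, and the call did not hold with each library left out in turn. Positive differences numbered 56 of the 77. The summed level lay between 3262 and 3664 CPM in refractory libraries and between 2915 and 2963 CPM in regeneration libraries A, C and D, without overlap. Regeneration 6 h B was at 4430 CPM.

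Glycolysis and hypoxia genes were called in both directions. Of 65 measured members 6 were higher and 5 lower, 16.9% together, against 3.47% of all genes, and their median was -0.06, with 3 called lower without regeneration A, refractory C or refractory D. The same list already had 5 higher and 8 lower at 0 h, 20.0% together, against 2.42% of all genes, with a median of -0.15. Pyruvate dehydrogenase is held off by the kinase of pdk4.L, which was at 145, 198, 177 and 239 CPM in refractory tails and 69.9, 74.1 and 81.5 CPM in regeneration tails, 2.52-fold higher (log2 1.33 ± 0.16, adjusted p = 2.46e-09), and pdk4.S differed by 1.03 ± 0.19. None of 106 oxidative phosphorylation genes was called by edgeR (11 at an unadjusted p under 0.05, and 1 called by DESeq2), with a median of -0.16. Of 99 cell cycle genes 2 were lower, neither call held with each library left out in turn, and the median was -0.29; 71 of the 99 differences were negative. The summed cell cycle level lay between 2751 and 2980 CPM in refractory libraries and between 3259 and 3309 CPM in regeneration libraries, without overlap. Such a separation was common among the summed lists, so it does not single out the cell cycle. Sums of TGF-beta, stress and chaperone, posterior patterning, glycolysis, ionocyte, pigment cell and lymphoid genes, among others, were apart too. Those of muscle, mesenchyme, oxidative phosphorylation and endothelial genes, among others, overlapped.

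In the remaining cell types the share of members called ran from 2.5% to 5.88%, against 3.47% of all genes. Both calls among 58 multiciliated cell and ionocyte genes were lower. That of foxj1.L did not hold in 4 of 7 omissions of a 6 h library. The other, atp6v1a.L, codes for a subunit of the proton pump by which ionocytes move acid. It was at 209, 219.5, 204 and 212 CPM in refractory tails and 303, 295 and 352 CPM in regeneration tails (log2 -0.58 ± 0.11). Its copy atp6v1a.S had a difference of the opposite sign and was not called. Of 20 pigment cell markers 1 was called, pnp.S, at 21.7, 17.3, 10.7 and 23.8 CPM in refractory tails and 68.3, 42.7 and 57.3 CPM in regeneration tails (log2 -1.61 ± 0.24). Erythroid markers varied within the groups, with sums between 4282 and 11023 CPM in refractory libraries and between 3176 and 16783 CPM in regeneration libraries, and 1 of 39 was called lower. Of 33 endothelial markers 1 was lower, of 17 lymphoid and interferon genes 1 was higher, and of 40 markers of liver, pancreas and gut 1 was higher; like the erythroid call, none of these held with each 6 h library left out in turn. Of 53 retina and lens markers 1 was higher and 1 lower; the lower one, gnb3.L, a transducin subunit of cone cells, was at 300.0, 282, 281 and 268 CPM in refractory tails and 478, 405 and 452 CPM in regeneration tails (log2 -0.65 ± 0.10). Summed retina and lens markers lay between 1641 and 2177 CPM in refractory libraries and between 1717 and 1922 CPM in regeneration libraries.

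Some of these calls depended on which libraries shared the model. With all 32 libraries, regeneration 6 h B included, the 6 h calls of lgals3.L, capn8.2.L, MGC147600.L, lmo2.S, rsph3.L, lrrc49.L, rorb.2.L, gapdh.S, hspa5.S, egr1.S, fos.L, fosl1.L, mmp3.L, mmp11.L, postn.S, fn1.S, nid2.L, bambi.L, hoxc10.L, cyp26b1.S, kera.L, pygm.S and g6pc1.3.S did not hold (adjusted p from 0.0532 for mmp3.L to 0.76 for kera.L), nor did the response differences of pck1.L, g6pc1.3.S, dlx3.L, lamb3.S and ldhb.S (from 0.0536 for pck1.L to 0.865 for ldhb.S). All of them kept their direction. In a fit of the compared groups alone, cyp26b1.S, dusp5.L, junb.S and xirp1.L were not called (adjusted p from 0.0567 to 0.107), and with libraries drawn down to 1 depth itga6.L was not (adjusted p = 0.0627). With copies summed, cyp26b1 and kera were not called (adjusted p = 0.101 and 0.191), nor were rora and rorb.2.

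The comparisons at other times share no library with that at 6 h. At 0 h 520 genes were called (2.42%), at 0.5 h 453 (2.11%) and at 72 h 516 (2.4%). Of the 744 genes called at 6 h, 216 were called in the same direction at 0 h and 4 in the opposite one; 524 were not called at 0 h. The sign was the same at 0 h for 83.6% of the 744 and for 58.4% of all genes tested. At 0.5 h 244 and at 72 h 138 of the 744 were called in the same direction, with the sign shared by 87.5% and 77.6%. Genes called in the same direction at all 4 times numbered 11 higher and 45 lower in refractory tails, krt7.S among the lower. Across the 744 genes, the Pearson correlation of the 6 h with the 0 h difference was 0.757 as a description; genes are not independent and share their libraries. The 0 h count was 263 genes without regeneration 0 h B, 340 genes without regeneration 0 h C and 142 with all 32 libraries.

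**Figure D4:**
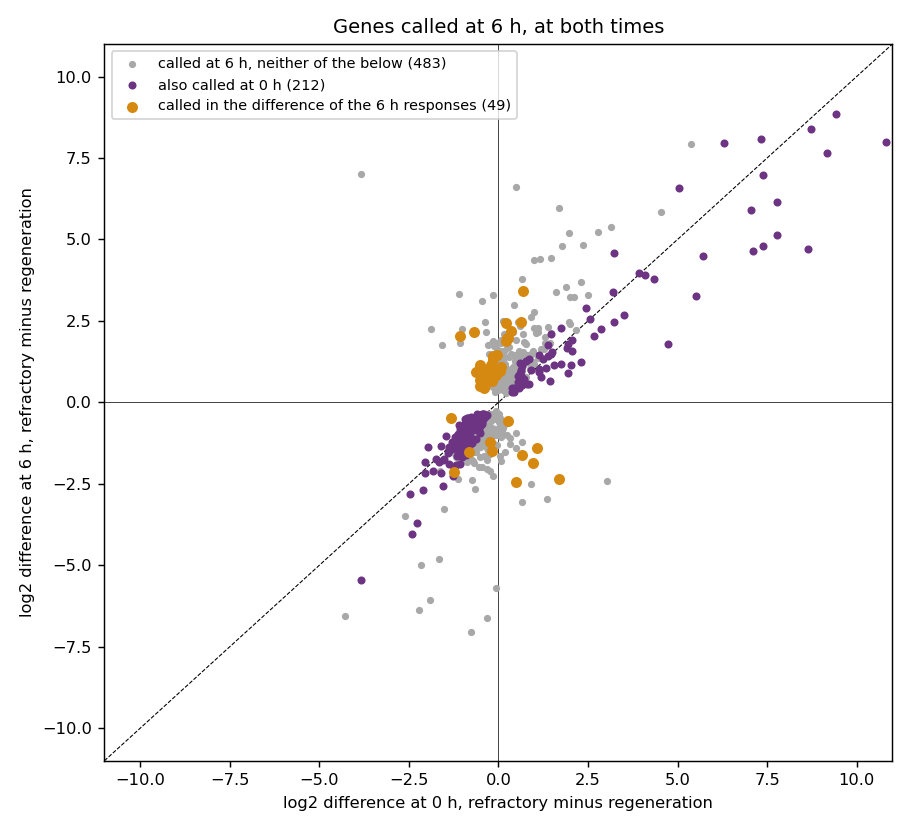
Log2 difference at 0 h (horizontal) against that at 6 h (vertical), refractory minus regeneration, for the 744 genes called at 6 h. Those called in the difference of the responses have a colour of their own, whether or not called at 0 h. The others that were also called at 0 h have another. Of the genes called at both times, 216 share their direction and 4 do not. Called in the difference of the responses, muc1.S, at 0.68 and 3.42, and g6pc1.3.L, at 1.68 and -2.34, lie away from the diagonal.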

How the data were processed

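Per the labels' protocols, RNA pooled from 20 embryos per sample (100 ng) was sequenced on an Illumina NextSeq 500 as 76 bp read pairs, with libraries of the Lexogen SENSE Total RNA-Seq type. The submitters' processing notes name the aligner STAR 2.7.9a, the counter HTSeq 0.6.1p1, and, for R 4.1.0, the package DESeq2 1.32.0, without settings. Genome build and annotation: not given in the sources used here; no positions are printed. Each period has a deposited raw table of counts, unnormalized, per gene and library. The authors' normalized tables hold a signal, in which each column equals the raw counts divided by 1 size factor; they were used only to see which libraries they keep. They keep 27 of 32 libraries, and lack regeneration 0 h A, 0.5 h A and 6 h B and refractory 0.5 h A and 72 h A. All 59 columns were matched to samples by title.

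The 27467 genes listed in both raw tables were used, of which 27466 match a RefSeq symbol. Counts of the 27 libraries, with totals between 1868637 and 4022871, were scaled by TMM and filtered with filterByExpr in edgeR 4.0.16 (R 4.3.3), which left 21458 genes. One quasi-likelihood model (glmQLFit, robust) of 8 groups, with 19 residual degrees of freedom and a common biological coefficient of variation of 0.339, gave every contrast by glmQLFTest, two-sided, with Benjamini-Hochberg adjustment over all genes; the procedure was first tested on simulated data. CPM use the TMM-scaled library sizes. Summed marker levels use a scaling of all 32 libraries.

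The members, lists and rules were chosen with earlier results of these data known. Genes were named by a rule: among called genes with a symbol, the 12 largest and the 12 smallest differences, provided that either group averages 5 CPM or more and that no library of one group lies within the other's range; up to 3 called members per list by lowest p; the 6 largest and 6 smallest response differences; the other copy of each; and the 12 called genes of highest CPM. The text leaves some of these out. Others are said to be named after their values were seen. The values of 1 gene that the rule takes up are not reported here. Lists (27, each gene copy counted once) are described by counts and medians, with no test of the list. Against a group with no count, a fold is a lower bound from a floor of 3 counts over the group; with 1 to 3 counts, a ratio is given with its 95% interval, which covers counting error only. Alternatives were another normalization, no filter on low counts, DESeq2 1.42.0, all 32 libraries, a replicate block, copies summed, a fit of the compared groups alone, libraries drawn down to 1 depth, and each library left out. Between the periods at 6 h, samples with the same letter (A, C and D) did not deviate together. Correlations of their deviations ran from -0.015 to 0.0054, so letters were not taken to pair samples. Whether a letter links samples of different times within a period was not examined by such correlations.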

Additional observations from a re-analysis of the deposited data

Results flagged for a closer look

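Response differences are the period difference at 6 h minus that at 0 h, on the log2 scale, and each value here passed the test of that difference (edgeR, adjusted p under 0.05 over all genes). Among genes with a more positive difference at 6 h, the value was 3.11 for fgfbp1.S, 2.84 for lamb3.S, 2.73 for muc1.S, 2.22 for tgm1.L, 1.83 for tnfrsf6b.L, a decoy receptor of the TNF receptor family, and 1.83 for lipg.L, an endothelial lipase. It was 1.69 for tnfrsf12a.S, 1.68 for ptgs2.L and 1.096 for hspb7.L, a small heat shock protein of muscle. Among genes with a more negative difference at 6 h, the value was -5.47 for clu.L (clusterin), -4.18 for the globin hba-l5.L, -4.03 for g6pc1.3.L, -3.45 for pck1.L, -2.94 for mmp11.L, -2.81 for g6pc1.3.S, -1.0 for dlx3.L and -0.70 for ldhb.S. Not all of these calls held. With all 32 libraries, the adjusted p was 0.925 for mmp11.L, 0.723 for clu.L, 0.356 for hba-l5.L, 0.302 for tnfrsf6b.L, 0.269 for tnfrsf12a.S and 0.175 for hspb7.L, and the calls of pck1.L, g6pc1.3.S, dlx3.L, lamb3.S and ldhb.S did not hold either. With 1 of the 14 libraries left out, the call was lost in 10 omissions for lipg.L, 9 for mmp11.L, 7 for clu.L, 6 for hba-l5.L and 6 for tnfrsf6b.L. It was lost for tnfrsf12a.S without refractory 6 h B or regeneration 0 h B, for dlx3.L and lamb3.S without regeneration 0 h B, for hspb7.L without regeneration 6 h A, and for ldhb.S without regeneration 6 h D. With each library left out in turn the calls of fgfbp1.S, muc1.S, tgm1.L, ptgs2.L, g6pc1.3.L, g6pc1.3.S and pck1.L held. For clu.L the 6 h levels overlapped between the groups and were not called, while at 0 h it had 25 counts in refractory tails and none in regeneration tails.

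Single libraries lay far from the rest of their group of 4 in 10 of 171 groups checked; chance gives this in about 1 group in 20. Refractory 6 h B was the high one for chad.L (52.3 CPM), mmp8.L (191 CPM), hba-l5.L (11.2 CPM), bpgm.S (6.1 CPM) and the summed myeloid leukocyte markers (904 CPM). Refractory 6 h A was the far one for tgm1.L (46.6 CPM, low), kdm6b.S (1344 CPM) and ldhb.L (14.6 CPM), refractory 6 h C for MGC147600.L (3.68 CPM), and refractory 6 h D for the summed tail tip epidermis markers (2838 CPM).

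In regeneration 6 h B, which the comparison does not use, markers of organs outside the tail were above the libraries compared. Summed liver, pancreas and gut markers were at 11002 CPM in it, against 6631 to 8746 CPM in refractory libraries and 5877 to 6681 CPM in the other regeneration libraries. Summed retina and lens markers were at 2573 CPM in it, against 1641 to 2177 CPM in refractory libraries and 1717 to 1922 CPM in the other regeneration libraries.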

How the results depend on the processing

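At 6 h, 355 genes were called higher and 389 lower in refractory tails. The counts were 374 and 378 with median-of-ratios scaling in edgeR in place of TMM, and 396 and 437 with no filter on low counts. They were 464 and 423 with the DESeq2 test, 279 and 364 with the copies summed, and 397 and 391 in a fit of the compared groups alone. With a replicate block, which pairs the samples by letter, they were 342 and 401, but the letter is the only link known between them. With libraries drawn down to 1 depth, an alternative chosen after seeing the data, they were 319 and 337. With all 32 libraries they were 251 and 138. Leaving out 1 library at a time gave 205 to 341 higher and 249 to 347 lower. The 520 calls at 0 h became 142 with all 32 libraries, 343 in a fit of the compared groups alone, and 263 to 574 with 1 library left out. The 58 response differences became 112 with no filter, 101 with DESeq2, 13 with all 32 libraries, and 38 to 65 with 1 library left out. The cause of these shifts was not tested. Of 101 named genes called at 6 h, 57 were called in every alternative that gave them a value (14 or 15 each) and 26 were lost in at least 1 omission. With copies summed, the sign turned for mmp8.L (1.92), atp6v1a.S (-0.39), kera.S (-0.54), ldhb.L (-1.50), muc1.L (2.58) and gapdh.L (-0.57), since the sum follows the more abundant other copy. Depth limits genes of few counts: refractory libraries hold 2011011 to 3283790 counts.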

Other observations

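Both copies of a gene were tested in 5650 pairs. In 376 of them at least 1 copy was called at 6 h, and in 64 both were, 62 of these in the same direction. Where 1 copy was called, the other had the same sign in 251 of 312 pairs, which is 80.4%, against 59.9% of all pairs. Copies may share reads, so this describes the pairs and does not count them as independent. Calls were about as frequent among .L genes (3.62%) as among .S genes (3.29%).

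Some genes are listed in the raw table of a single period and entered no comparison. Among those not named only by a LOC number, ifit1b.L had the most counts at 6 h in the refractory table, 38 in 3 libraries, and XB22041731.L had 38 in 3 libraries of the regeneration table.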
